A study of Mus musculus with 6 samples.

Results

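The vitamin D receptor, its RXR partners, the corepressor Ncor1 and the enzymes that make and destroy the active hormone were followed through Ocy454 cells treated with parathyroid hormone (PTH) or with an inhibitor of the salt-inducible kinases (SIKs). The set held 7 genes, namely Vdr, Rxra, Rxrb, Rxrg, Ncor1, Cyp27b1 and Cyp24a1, chosen by gene symbol from the 39179 genes listed, and every one of the 7 was found. Ocy454 is a mouse osteocytic cell line, used here as a single-cell subclone, so the libraries describe 1 clone. All cells were grown to confluency at 33 °C, kept at 37 °C for 14 days, given new medium 24 h before collection and then treated for 4 h. The treatments were vehicle (PBS with 25 mM HCl), 1 nM PTH 1-34 or 0.5 µM YKL-05-093, a small molecule that inhibits SIKs, and each was represented by 2 libraries. The labels give this 1 vehicle for all cells, whereas the study's supplementary methods name DMSO as the solvent of compounds for cell work, so whether the YKL-05-093 and vehicle libraries had the same solvent is not settled here. No vitamin D compound was named among the treatments. The labels do not say whether the 2 libraries of a group came from separate cultures, so p-values measure only the spread between these libraries, which may be technical.

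Vitamin D signals through a nuclear receptor. Cyp27b1 makes the active hormone 1,25-dihydroxyvitamin D from its precursor, and Cyp24a1 inactivates both. The hormone binds VDR, which pairs with a retinoid X receptor (RXR) on DNA, releases corepressor complexes such as those built on NCoR1 and recruits coactivators, and Cyp24a1 itself is the classic target gene. In bone, VDR is known for driving genes of mineral handling and of osteoclast formation in cells of the osteoblast lineage, and both PTH and vitamin D act there on the gene for RANKL.

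Each library held between 17505798 and 27983585 reads on genes, recovered from the steps between the deposited RPKM values (reads scaled by the length of the gene and by the counted reads of the library). Of the osteoblast markers, Col1a1 lay between 259 and 430 RPKM and Alpl between 61.7 and 88.9 RPKM over the 6 libraries. The osteoblast transcription factor genes were lower with PTH than with vehicle in every library. Sp7 held 46.0 and 45.5 RPKM with vehicle, 12.2 and 11.1 RPKM with PTH and 22.4 and 29.6 RPKM with YKL-05-093, and Runx2 held 19.5 and 13.0, 7.87 and 7.02, and 11.6 and 12.6 RPKM. Bglap, also on that list, is described with the target genes. The part of these differences in the results on Vdr was not tested. Of the osteocyte markers, Pdpn lay between 53.1 and 171 RPKM and Phex and Dmp1 between 0.376 and 4.93 RPKM, whereas Mepe, Sost and Fgf23 held at most 4 reads in any library. The 2 vehicle libraries stood further apart than the other pairs. Their median absolute log2 difference over the 14264 genes past the filter was 0.333, against 0.108 for PTH and 0.103 for YKL-05-093. That difference moved with gene length. The median log2 difference of vehicle replicate 1 from replicate 2 was -0.3 for genes under 2000 bases and 0.496 for genes over 6000 bases.

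Vdr (ENSMUSG00000022479) lies on the minus strand of chromosome 15 (GRCm38, 97854425 to 97910630) and has 14 merged exons, none of which overlaps an exon of another gene. Its promoter is printed because Vdr was the member that moved, and that of Rxrb because it was also well measured and did not pass the test. Both windows run from 250 bases before to 50 bases after the start of the RefSeq transcript (GRCm38.p6). The Vdr window is chr15:97908247-97908546 on the minus strand and the first Rxrb window is chr17:34031562-34031861 on the plus strand. Capitals mark matches to a GC box (GGGCGG) or to the short core of a cAMP response element (TGACG), on either strand.
Vdr: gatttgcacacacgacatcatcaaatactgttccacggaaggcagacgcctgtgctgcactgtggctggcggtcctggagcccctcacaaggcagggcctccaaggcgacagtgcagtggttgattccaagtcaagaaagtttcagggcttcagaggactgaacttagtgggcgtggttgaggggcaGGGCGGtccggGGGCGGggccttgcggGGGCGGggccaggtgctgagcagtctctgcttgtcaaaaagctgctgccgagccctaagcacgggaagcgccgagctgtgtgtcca
Rxrb: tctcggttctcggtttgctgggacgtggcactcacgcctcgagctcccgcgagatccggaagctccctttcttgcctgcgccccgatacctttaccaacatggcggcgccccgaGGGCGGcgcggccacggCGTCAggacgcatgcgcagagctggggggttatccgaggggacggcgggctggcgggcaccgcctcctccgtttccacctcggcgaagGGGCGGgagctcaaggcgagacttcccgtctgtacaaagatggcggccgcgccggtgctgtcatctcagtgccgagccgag

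The Vdr window held 3 GC boxes and no cAMP response element (TGACGTCA) or short core, and no DR3 element, the direct repeat that VDR-RXR pairs bind. This window lies inside the gene as annotated, and the annotated start at 97910630 (minus strand) was not searched. The first Rxrb window held 2 GC boxes and 1 short core, and no full element. A second Rxrb window, chr17:34032100-34032399, is not printed and held 4 GC boxes, no short core and no full element. The short core is contained in the full element, so the 2 searches overlap. Of 32851 RefSeq promoter windows of this length, 35.7% held a GC box, 20.8% the short core, 1.79% the full element and 0.256% a DR3 element. The GC box was chosen after the sequences were seen. These matches are letters in a window and were not measured for binding.

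Vdr rose from a few RPKM to over 50 RPKM with either agent. The vehicle libraries held 4.41 and 3.31 RPKM (442 and 530 reads), the PTH libraries 59.6 and 56.9 RPKM (7377 and 6216 reads) and the YKL-05-093 libraries 54.7 and 54.9 RPKM (6363 and 6523 reads). The 4 treated libraries lay far above both vehicle libraries, with no overlap. The group means were 3.86 ± 0.779, 58.2 ± 1.91 and 54.8 ± 0.0977 RPKM (SD, n = 2). In the order of all genes listed by RPKM within a library, Vdr moved from places 8800 and 9366 with vehicle to between 1107 and 1156 with PTH or YKL-05-093. More cells that express a gene and more RNA per cell cannot be told apart in such bulk libraries.

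Differences were tested with limma on log2(RPKM + 0.1), and the call rule was an adjusted p under 0.05 together with a change over 2-fold. On this scale Vdr was higher with PTH by 3.90 (SE 0.19, adjusted p = 0.000456), which is 14.9-fold with a 95% interval of 10.9 to 20.3. With YKL-05-093 the log2 difference from vehicle was 3.81 (SE 0.19, adjusted p = 0.00121), or 14.0-fold with an interval of 10.3 to 19.0. Both comparisons use the same vehicle libraries. Vdr was 1 of 4 members tested and the 1 called, in a background of 1.91% of 14261 genes called with PTH (1.09% higher and 0.813% lower) and 0.666% of 14255 genes with YKL-05-093 (0.393% higher and 0.274% lower). Leaving out each library in turn kept the difference between 3.69 and 4.10 with PTH and between 3.61 and 4.01 with YKL-05-093. Each such fit holds 1 library in 1 group and takes its spread from the other pair, so only the sizes are given. With no filter on low values the same differences missed the threshold (adjusted p = 0.0555 and 0.135), and limma then called 0 genes in either comparison, with 2343 and 1734 genes at an unadjusted p under 0.05.

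Between the 2 agents, Vdr differed little. Both PTH libraries lay above both YKL-05-093 libraries, and the difference of PTH from YKL-05-093 was 0.087 on the log2 scale (SE 0.068, adjusted p = 0.518). The 95% interval of the ratio ran from 0.961 to 1.17. In this direct comparison 1.21% of 14255 genes were called (0.737% higher and 0.47% lower with PTH), and 0 of the 4 members tested were among them. At an unadjusted p under 0.05, limma gave 3178 genes, of which 0 were members.

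**Figure D1:**
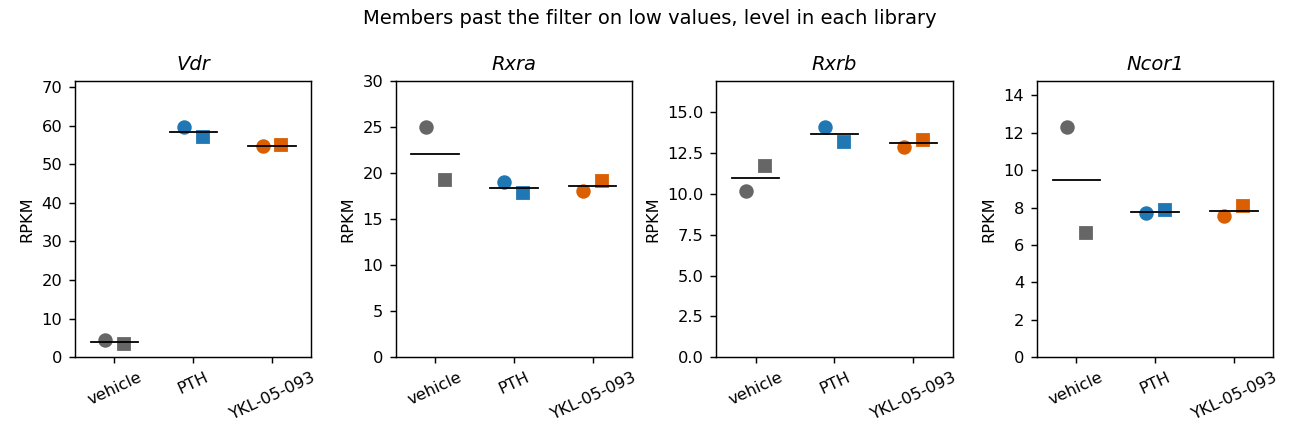
Level of the 4 members past the filter (RPKM, linear axis from 0) in each library, by treatment. Circles are replicate 1, squares replicate 2 and lines group means. Vdr lies at 3.31 to 4.41 RPKM with vehicle and at 54.7 to 59.6 RPKM otherwise, and the Ncor1 vehicle libraries lie on both sides of the other groups.

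The RXR genes encode the obligate partners of VDR and of several other nuclear receptors. Rxra (ENSMUSG00000015846, chromosome 2, 27676440 to 27762957, plus strand) was the most abundant of the 3. It held 25.0 and 19.2 RPKM with vehicle, 19.0 and 17.8 RPKM with PTH and 18.1 and 19.1 RPKM with YKL-05-093. Vehicle replicate 1 lay apart and vehicle replicate 2 was close to the treated libraries. The log2 differences from vehicle were -0.25 for PTH (SE 0.19, adjusted p = 0.671) and -0.23 for YKL-05-093 (SE 0.19, adjusted p = 0.831), neither past the threshold. Their intervals allow ratios from 0.619 to 1.14 and from 0.628 to 1.15.

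Rxrb (ENSMUSG00000039656, chromosome 17, 34031812 to 34038399, plus strand) held 10.2 and 11.7 RPKM with vehicle, 14.1 and 13.2 RPKM with PTH and 12.9 and 13.3 RPKM with YKL-05-093. All 4 treated libraries lay above both vehicle libraries, by little. The log2 differences of 0.32 (SE 0.16, adjusted p = 0.483) and 0.26 (SE 0.16, adjusted p = 0.776) did not pass the threshold, and the intervals of the ratios ran from 0.956 to 1.62 and from 0.924 to 1.56. Rxrg (ENSMUSG00000015843, chromosome 1, 167598384 to 167639623, plus strand), the form known from muscle and brain, held 1 read in vehicle replicate 2, 1 in PTH replicate 1 and 0 in the other 4 libraries. Its recovered length did not equal that of the annotation, so these reads may be a multiple of the numbers given. It was below the filter, and no difference was detectable at this depth.

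Since RPKM values are per length, the receptor and its partners can be set on 1 scale. The summed level of the 3 RXR genes stayed between 30.9 and 35.2 RPKM over all 6 libraries. The ratio of Vdr to this sum was 0.125 and 0.107 with vehicle, 1.80 and 1.84 with PTH and 1.76 and 1.69 with YKL-05-093. Thus Vdr RNA lay below the summed RXR RNA in both vehicle libraries and above it in the 4 treated libraries. Rxra made up 70.9% and 62.2% of the RXR sum with vehicle, 57.4% in both PTH libraries, and 58.3% and 58.9% with YKL-05-093. The vehicle shares were the higher ones, but they also differed from each other by more than the treated shares differed among themselves. With 2 libraries against 2, an exact permutation test cannot go below p = 0.333 (two-sided), so neither the ratio nor the share was tested.

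**Figure D2:**
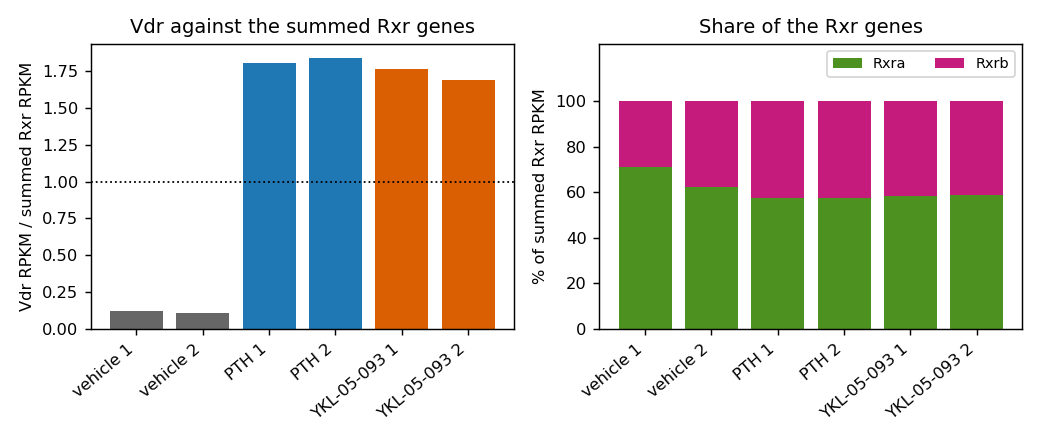
Left, ratio of Vdr RPKM to the summed RPKM of Rxra, Rxrb and Rxrg in each library, with a dotted line at 1. Right, share of that sum from Rxra and Rxrb in percent, where Rxrg is too small to see. The ratio is 0.107 and 0.125 with vehicle and 1.69 to 1.84 in the treated libraries.

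Ncor1 (ENSMUSG00000018501, chromosome 11, 62316426 to 62458541, minus strand) encodes a corepressor that holds histone deacetylase 3 on unliganded receptors. It held 12.3 and 6.64 RPKM with vehicle, 7.71 and 7.85 RPKM with PTH and 7.53 and 8.09 RPKM with YKL-05-093. The treated libraries lay between the 2 vehicle libraries. The log2 differences from vehicle were -0.22 (SE 0.28, adjusted p = 0.814) and -0.21 (SE 0.28, adjusted p = 0.897). Vehicle replicate 1 decided the sign. Without it the differences were 0.22 and 0.23, and without vehicle replicate 2 they were -0.66 and -0.65. Such fits hold 1 vehicle library and take their spread from the treated pair, so only the sizes are given. A difference between the vehicle libraries at least as large as that of Ncor1 was found in 7.73% of the genes past the filter. The recovered length of Ncor1 is 13816 bases, in the class of long genes that were higher in vehicle replicate 1, and the part of this in its values was not tested. The exons of Ncor1 also share 82 bases with Pigl and 1 base with Ttc19 on the other strand, and whether the counting used strand is not given in the sources used here.

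**Figure D3:**
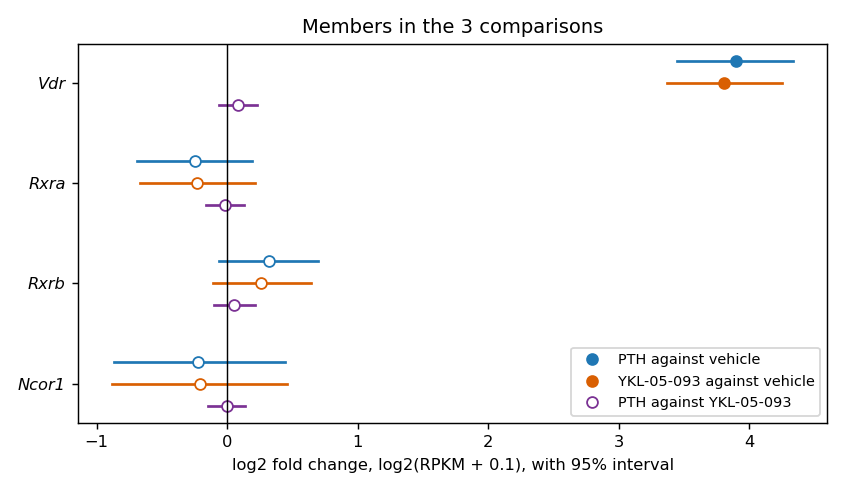
Log2 fold change on the log2(RPKM + 0.1) scale with its 95% interval for the 4 members tested, in the 3 comparisons. Filled points passed the threshold. Only Vdr against vehicle is filled, at 3.90 for PTH and 3.81 for YKL-05-093, and every interval of the other 3 members holds 0.

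The 2 enzymes of hormone turnover were at the edge of detection. Cyp27b1 (ENSMUSG00000006724, chromosome 10, 127048250 to 127053006, plus strand), the 1α-hydroxylase that PTH is known to raise in the kidney, held 2 and 3 reads with vehicle, 2 and 2 with PTH and 1 and 4 with YKL-05-093. In RPKM these are 0.0446 and 0.0418, 0.0361 and 0.0409, and 0.0192 and 0.0752. Cyp24a1 (ENSMUSG00000038567, chromosome 2, 170482708 to 170497145, minus strand), the 24-hydroxylase, held 1 read in vehicle replicate 1 (0.0161 RPKM) and was at 0 in the other 5 libraries. A count of 0 allows a level of up to 3 reads, which for Cyp24a1 is between 0.0302 and 0.0443 RPKM in those 5 libraries. Such floors cover counting error only. Neither enzyme passed the filter, so neither was tested, and a change under these limits was not detectable. In the libraries with over 50 RPKM of Vdr, Cyp24a1 was listed at 0 throughout.

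**Figure D4:**
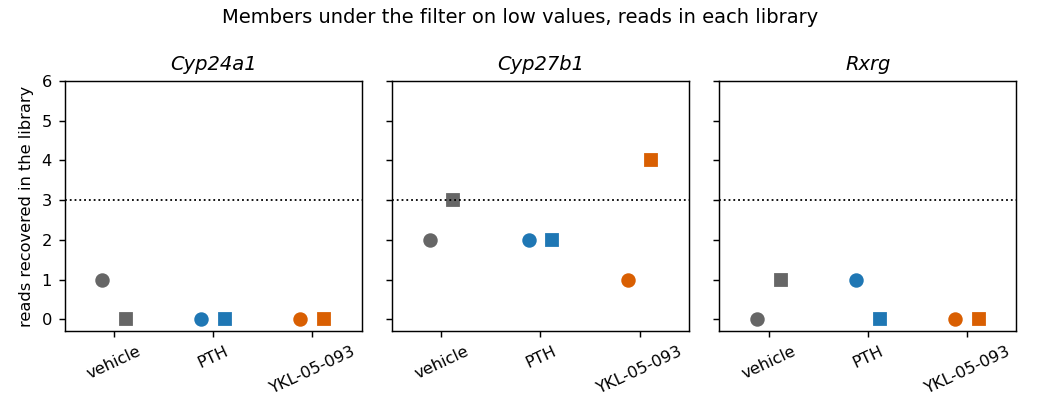
Reads recovered in each library for the 3 members under the filter (linear axis), with a dotted line at 3 reads. Circles are replicate 1 and squares replicate 2. No library holds over 4 reads of Cyp27b1 or over 1 read of Cyp24a1 or Rxrg.

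Other genes of hormone supply were measured at a range of levels. Of 9 genes for earlier synthesis steps, transport and electron supply, 4 passed the filter and 0 were called in any of the 3 comparisons, beside 1.91%, 0.666% and 1.21% of all genes tested, which for 4 genes is no result about them. Pdia3, a protein disulphide isomerase also described as a membrane binding protein for the hormone, lay between 41.0 and 45.3 RPKM, with log2 differences of -0.033 for PTH and 0.018 for YKL-05-093. Fdx1, the ferredoxin that passes electrons to mitochondrial P450 enzymes such as Cyp27b1 and Cyp24a1, lay between 18.1 and 26.2 RPKM. Cyp2r1 and Cyp27a1 (25-hydroxylases), Gc (the vitamin D binding protein) and Lrp2 and Cubn (its uptake receptors) were below the filter, and Cyp2r1 was listed at 0 in every library. Dhcr7 and Fdxr made up the rest of the 4 genes tested.

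Most coregulators showed the split of the vehicle libraries seen for Ncor1, and their levels are given for that reason. Of 10 coactivators and 6 corepressors past the filter, 0 were called in any comparison, beside 1.91%, 0.666% and 1.21% of all genes tested for PTH, YKL-05-093 and the direct comparison. At those shares a count of 0 says nothing particular about so few genes. Snw1, a coactivator that binds VDR directly, lay between 29.0 and 38.2 RPKM, with log2 differences of 0.29 for PTH (adjusted p = 0.517) and 0.24 for YKL-05-093 (adjusted p = 0.793). In GENCODE M21 the exons of Snw1 overlap those of Slirp on the other strand over 2914 bases. That is more than the recovered length of Snw1, 2217 bases, which does not equal that of GENCODE. How far the counted gene overlaps Slirp, and whether this touches its values, is therefore not known. Baz1b, a chromatin remodelling subunit described in a VDR complex, held 34.0 and 18.2 RPKM with vehicle and between 21.3 and 23.3 RPKM in the treated libraries. Hdac3, the deacetylase of the NCoR1 complex, was level at 21.6 to 23.0 RPKM, and Tbl1x, another subunit of that complex, held 28.4 and 18.9 RPKM with vehicle and 19.3 to 21.6 RPKM otherwise. Counting Ncor1 with them, 14 of 17 coregulators were higher in vehicle replicate 1 than in each of the other 5 libraries. The share of all genes with this pattern was not counted, so it is not read as a trait of coregulators. Genes over 6000 bases had a median log2 difference of vehicle replicate 1 from replicate 2 of 0.496. The part of gene length in the coregulator values was not tested. At an unadjusted p under 0.05, limma gave 1897 genes with PTH and 1236 with YKL-05-093 over all genes tested.

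VDR is 1 of several receptors that pair with RXR, and the others share its partners. With vehicle, Vdr stood at place 7 of 16 such receptor genes by mean RPKM, near Nr4a1 (4.08 ± 0.511 RPKM) and Ppard (4.29 ± 0.555 RPKM), from which it did not differ beyond the spread (SD, n = 2). Thra, a thyroid hormone receptor, was the most abundant at 36.3 ± 1.69 RPKM. With PTH, Vdr was at place 1 and Thra next at 31.1 ± 1.35 RPKM. With YKL-05-093, Vdr was again at place 1, above Thra (38.2 ± 1.28 RPKM) and Nr4a1 (37.9 ± 6.65 RPKM), which did not differ from each other beyond their spread. The order within a group is a description of levels per length.

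Of the other 15 receptor genes, 9 passed the filter, 2 were called higher against vehicle with each agent, beside 1.09% of all genes tested with PTH and 0.393% with YKL-05-093, and the rest were not called. Nr4a1 and Nr4a2 encode orphan receptors known as immediate early genes. Nr4a1 held 4.45 and 3.72 RPKM with vehicle, 9.85 and 9.75 RPKM with PTH and 33.2 and 42.6 RPKM with YKL-05-093. Its log2 difference from vehicle was 1.25 for PTH (SE 0.17, adjusted p = 0.013) and 3.18 for YKL-05-093 (SE 0.19, adjusted p = 0.00229). Nr4a2 held 0.819 and 1.05 RPKM with vehicle, 5.49 and 5.13 RPKM with PTH and 7.26 and 8.62 RPKM with YKL-05-093, differences of 2.39 (adjusted p = 0.00166) and 2.96 (adjusted p = 0.00229). Without either PTH library the PTH calls of both genes were lost, in fits that take their spread from the vehicle pair alone. Over the fits without 1 library the PTH differences ran from 1.12 to 1.37 for Nr4a1 and from 2.23 to 2.56 for Nr4a2. Pparg, the receptor known for driving fat cell formation, held 1.62 and 1.83 RPKM with vehicle, 0.562 and 0.77 RPKM with PTH and 1.27 and 1.42 RPKM with YKL-05-093. Its log2 difference with PTH was -1.26 (SE 0.25, adjusted p = 0.0585), not called. Pparg was called in a joint fit of all 6 libraries and with the replicate number as a block (adjusted p = 0.00183). The Pparg difference was -1.34 without vehicle replicate 1 and -1.18 without vehicle replicate 2. Unlike Vdr, Nr4a1 was also called between the agents, with PTH lower by a log2 difference of -1.93 (SE 0.096, adjusted p = 2.37e-09). That call was lost without either PTH library. Smaller differences under 2-fold, and so not called, had an adjusted p under 0.05 for Nr4a2 (-0.57), Pparg (-0.93), Thra (-0.30), Rara (0.42) and Nr1h4 (0.62). Rarg, Ppard and Nr1h2 did not reach it. The median log2 difference of the 9 genes was -0.17 with PTH and -0.0025 with YKL-05-093, beside -0.031 and -0.042 over all genes tested.

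Textbook target genes of the receptor were next compared. Of 26 listed, 16 passed the filter, and Fgf23, Trpv5, Trpv6, S100g, Calb1, Slc8a1, Slc34a1, Slc34a2, Kl and Cyp3a11 did not. With PTH, 5 of the 16 rose (Tnfsf11, Mgp, Cebpb, Bglap and Bglap2), 0 fell and 11 were not called, beside 1.09% of all genes tested called higher. With YKL-05-093, 1 of the 16 rose (Tnfsf11), 0 fell and 15 were not called, beside 0.393%. Tnfsf11 is in both counts, but it passed the filter only through its treated libraries, where it is high. Its place in the counts is therefore not read against these shares. The median log2 difference of the 16 was 0.21 with PTH and -0.015 with YKL-05-093. The count with PTH was 3 with the variance trend on the mean value and 1 (Tnfsf11) without either PTH library. The count with YKL-05-093 was 0 without vehicle replicate 1 or YKL-05-093 replicate 1 or with the trend on the mean value, and 2 (Tnfsf11 and Cebpb) without vehicle replicate 2. Without a filter on low values both counts were 0. Many of these genes are known to answer to other signals in osteoblasts as well, and their levels were not taken as a measure of VDR activity. The list holds no expected direction for each gene, so a rise is not read as a vitamin D response.

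Tnfsf11 encodes RANKL, the signal for osteoclast formation. It held 0.358 and 0.272 RPKM with vehicle (14 and 17 reads), 12.6 and 10.6 RPKM with PTH and 3.09 and 2.57 RPKM with YKL-05-093. The 3 groups did not overlap. Both vehicle libraries lay under the filter of 0.5 RPKM, so Tnfsf11 was tested only because its treated libraries reached it. The log2 difference from vehicle was 4.82 for PTH (SE 0.21, adjusted p = 0.000456) and 2.82 for YKL-05-093 (SE 0.26, adjusted p = 0.00942), and that between PTH and YKL-05-093 was 2.00 (SE 0.12, adjusted p = 2.64e-08). Since the vehicle level is low, the size depends on the pseudocount. The differences from vehicle were 3.26 and 1.54 with a pseudocount of 1, and 5.17 and 3.13 with a pseudocount of 0.01, called in each case. The call with YKL-05-093 was lost without vehicle replicate 1 (adjusted p = 0.0572) or without YKL-05-093 replicate 1 (adjusted p = 0.0647).

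Mgp encodes matrix Gla protein, an inhibitor of mineralization. It held 132 and 196 RPKM with vehicle, 715 and 669 RPKM with PTH and 192 and 194 RPKM with YKL-05-093. The PTH libraries stood alone. Its log2 difference from vehicle was 2.10 for PTH (SE 0.22, adjusted p = 0.00522) and 0.26 for YKL-05-093 (adjusted p = 0.844), and PTH was above YKL-05-093 by 1.84 (SE 0.067, adjusted p = 7.41e-11). Cebpb, a transcription factor of the C/EBP family, held 13.2 and 15.0 RPKM with vehicle, 42.7 and 42.2 RPKM with PTH and 26.9 and 28.1 RPKM with YKL-05-093. The YKL-05-093 libraries lay between the other groups. The log2 difference of Cebpb from vehicle was 1.58 for PTH (adjusted p = 0.0041) and 0.96 for YKL-05-093 (adjusted p = 0.0661), the latter under 2-fold and not called. Cebpb shares 312 bases of exon with Tmem189 on the other strand, so reads of the pair may not be separated.

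Bglap encodes osteocalcin. It held 6.61 and 11.5 RPKM with vehicle, 27.1 and 25.3 RPKM with PTH and 11.9 and 11.4 RPKM with YKL-05-093. Its log2 difference was 1.58 for PTH (adjusted p = 0.0283) and 0.41 for YKL-05-093 (adjusted p = 0.796), with PTH above YKL-05-093 by 1.16 (adjusted p = 4.55e-06). That last call was lost in the joint fit of all 6 libraries (adjusted p = 0.0887). Bglap2, which held 68.2 and 54.5 RPKM with PTH against 17.1 and 27.2 RPKM with vehicle, is a near-identical copy of Bglap. The split of reads between the 2 copies is uncertain. In the PTH comparison each of Mgp, Cebpb, Bglap and Bglap2 lost its call without either PTH library. Those fits take their spread from the vehicle pair alone, which stood further apart than the other pairs. Over the fits without 1 library the log2 differences ran from 1.82 to 2.39 for Mgp and from 1.49 to 1.68 for Cebpb. They ran from 1.18 to 1.97 for Bglap and from 1.16 to 1.83 for Bglap2. Every call in the direct comparison of the agents was lost without either PTH library as well, where limma called 0 genes over the whole table and 2130 and 2022 genes had an unadjusted p under 0.05.

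**Figure D5:**
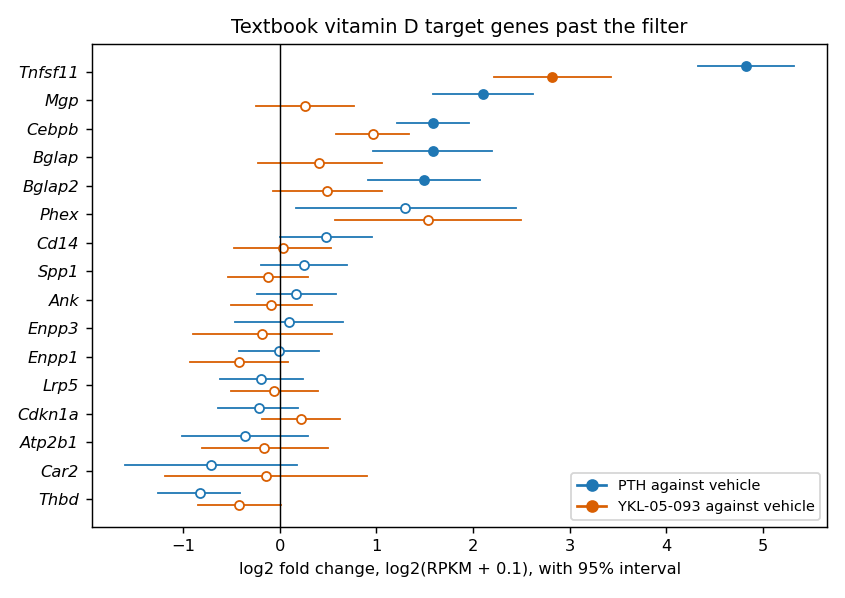
Log2 fold change on the log2(RPKM + 0.1) scale with its 95% interval for the 16 textbook vitamin D target genes past the filter, PTH (blue) and YKL-05-093 (orange) against vehicle. Filled points passed the threshold. With PTH, 5 genes are filled, and with YKL-05-093 Tnfsf11 alone.

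The genes whose pattern over the 6 libraries was most like that of Vdr were sought by the Euclidean distance between log2(RPKM + 0.1) values centred on the vehicle mean, over 14263 genes. The nearest 5 were Gm24988 (distance 0.715), Gm25857 (0.845), Gm25453 (0.935), Rasl10b (1.37) and Gm24922 (1.64). The 4 Gm genes are small RNA genes of 101 to 128 bases with 0 reads in both vehicle libraries and 1 to 5 reads in each treated library, so their distances rest on single reads. A further search, chosen after these values were seen, kept only the 11723 genes that averaged 50 or more reads and measured 200 or more bases. Among the nearest genes were Rasl10b (1.37), Tnfsf11 (1.93), Kcnk10 (2.01) and Crispld2 (2.25). Rasl10b, a Ras-like protein gene, held 0.0713 and 0.107 RPKM with vehicle, 2.73 and 2.85 RPKM with PTH and 4.99 and 4.67 RPKM with YKL-05-093. The vehicle levels of Rasl10b and Crispld2 (0.118 and 0.081 RPKM) lie near the pseudocount of 0.1, so their distances depend on it. By group means Rasl10b was 31.3-fold higher with PTH and 54.1-fold with YKL-05-093. On the log2(RPKM + 0.1) scale it was 15.3-fold and 26.2-fold higher. Kcnk10, a potassium channel gene, held 0.317 and 0.226 RPKM with vehicle, 2.67 and 2.68 RPKM with PTH and 2.40 and 2.48 RPKM with YKL-05-093. Like Vdr, Kcnk10 was near level between the agents, whereas Tnfsf11 and Crispld2 were higher with PTH and Rasl10b with YKL-05-093. These genes were picked by the pattern itself, so their values are a description with no test.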

How the data were processed

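RNA was measured in 6 libraries of Ocy454 cells, 2 each with vehicle, PTH or YKL-05-093, from ribosome-depleted, directional libraries. The authors called bases with CASAVA 1.7 per the submitters' processing notes, used STAR for alignment to the mm10 build (GRCm38) and HTSeq with Ensembl annotation for counting, and deposited RPKM values for 39179 genes, on a linear scale and with no scaling between libraries. The single-library tables hold the same values.

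RPKM is reads per length and library total, so whole reads, lengths and totals were recovered from the steps between values. The reads add up to 99.7% of each total, and 36.0% of lengths above 0 equal those of GENCODE M21, which gave positions (96.0% of identifiers matched). limma 3.58.1 in R 4.3.3 was run on log2(RPKM + 0.1), separately per comparison, keeping genes that reached 0.5 RPKM in 2 or more of 6 libraries, with a variance trend on recovered reads and Benjamini-Hochberg adjustment over all genes tested. The code was tested on simulated data. Figures were drawn with matplotlib 3.10.9 in Python 3.11.15.

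The members, gene lists and this model of the spread were chosen with earlier results of these data known. Genes were named by a rule: all members, from each list the called genes (at most the 4 with the largest change, with Bglap2 added after its values were seen) or else the 2 with the highest mean RPKM, and the 5 genes nearest to Vdr. In the further search for such genes, 1 result is not reported here. Genes that only complete a count or a rank were named after their values were seen. Alternatives covered the pseudocount, the filter, the variance trend, 1 joint fit, voom on recovered reads, median-of-ratios scaling, a replicate block and each library left out. Promoters came from RefSeq tables, which matched 6 of 7 members.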

Additional observations from a re-analysis of the deposited data

Results flagged for a closer look

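In the direct comparison of the agents, 4 genes around the receptor were called at an adjusted p under 0.05 and over 2-fold. Over all 14255 genes tested, 1.21% were called. The effects of these 4 genes against vehicle differed between PTH and YKL-05-093 by limma's test of the difference itself. Tnfsf11 was higher with PTH by 2.00 on the log2 scale, Mgp by 1.84 and Bglap by 1.16, each in 2 of 2 PTH libraries against both YKL-05-093 libraries. Nr4a1 differed the other way, by -1.93. Since both agents were set against the same vehicle libraries, these differences are those between the PTH and YKL-05-093 libraries. Each call was lost when either PTH library was left out, and that of Bglap also in the joint fit of all 6 libraries (adjusted p = 0.0887). No member of the set was called in this comparison. Other list genes passed an adjusted p under 0.05 but not the 2-fold limit. Among them were Bglap2 (1.00, adjusted p = 9.69e-06), Cebpb (0.63, adjusted p = 1.64e-05) and Nr4a2 (-0.57, adjusted p = 0.000555). At the adjusted p alone, limma gave 1421 of 14255 genes.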

How the results depend on the processing

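The number of members called was 1 against vehicle with each agent and 0 between the agents, and it held under every alternative run except the one with no filter on low values, where 0 were called against vehicle with PTH and 0 with YKL-05-093 (main count 1 in each). In those fits 0 genes of the whole table were called, with 25085 and 24944 genes tested, against 14261 and 14255 with the filter. The alternatives include the fits without 1 library, which take their spread from the remaining pair alone, so their calls are uncertain. Signs reversed for differences that had not passed the test. Over the fits without 1 library, Ncor1 ran from -0.66 to 0.22 with PTH and from -0.65 to 0.23 with YKL-05-093, in each case positive only without vehicle replicate 1. Between the agents Ncor1 ran from -0.06 to 0.05, with 0.01 without PTH replicate 1 and 0.05 without YKL-05-093 replicate 2, and Rxra from -0.07 to 0.03, with 0.03 without PTH replicate 2 and 0.02 without YKL-05-093 replicate 2. Mgp with YKL-05-093 ran from -0.02 to 0.54, and was negative only without vehicle replicate 1. The cause was not tested. Of 156 values of single members under alternatives, 148 kept their direction and side of the threshold, 2 lost the call and 6 changed sign.

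Across genes the differences between replicates correlated at -0.0336 (vehicle and PTH), -0.054 (vehicle and YKL-05-093) and -0.0494 (PTH and YKL-05-093). Values near 0 cannot exclude that the replicate numbers pair the libraries, because the vehicle difference was the largest and moved with gene length. Whether they do is not settled here. With the replicate number as a block, Vdr was still the 1 member called against vehicle, and the genes called over the whole table numbered 440, 215 and 196 in place of 272, 95 and 172. Among the textbook targets the block gave 6 calls with PTH and 2 with YKL-05-093 in place of 5 and 1. Phex (log2 1.30 and 1.53) was the added one in each (adjusted p = 7.65e-07 and 1.19e-07). In the main fit these Phex differences had an adjusted p of 0.303 and 0.246. Its replicates stood apart, at 1.82 and 0.764 RPKM with vehicle, 4.93 and 1.91 with PTH and 2.72 and 4.8 with YKL-05-093. The block leaves few libraries to estimate each gene's own spread, so the added calls are uncertain. Counts over all genes also moved with single libraries, from 14 to 669 with PTH, from 11 to 321 with YKL-05-093 and from 0 to 155 between the agents. With the variance trend on the mean value, 160, 6 and 137 genes were called, with a pseudocount of 1 they were 212, 55 and 98, and with a filter of 0.1 RPKM 260, 57 and 195. The joint fit of all 6 libraries called 334, 173 and 102. A fit without a library assumes that the lone one varies like the other group. Depth limits Cyp24a1, Cyp27b1 and Rxrg, at 4 reads or fewer per library.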
